A study of Mus musculus with 6 samples.

Results

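The imprinted growth genes are 10 genes chosen by name: H19, Igf2, Igf2r, Dlk1, Meg3, Peg3, Grb10, Mest, Plagl1 and Ndn. All 10 were found in the count table, among 38561 genes in all, and all 10 had enough reads to be tested. RNA was sequenced from 6 libraries of sorted C57BL/6 mouse cells from the medial ganglionic eminence (MGE) at E11.5, a ventral brain region in which many cortical interneurons are born. The 4 controls had the genotype Nkx2.1-Cre;ROSAloxSTOPloxTdTomato, and the 2 heterozygous libraries had Magoh lox/+ in addition to the same Cre and reporter. MAGOH belongs to the exon junction complex, a set of proteins left on mRNA by splicing, and the study asked how the transcriptome differs with a reduced dose of Magoh. Both groups therefore carry the Cre and the tdTomato reporter, and the Magoh allele is deleted only where the Nkx2-1 driver has been active. The labels do not say whether libraries came from separate embryos, so the p-values reflect how far these particular libraries vary, which may be technical.

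In an imprinted gene the copy inherited from one parent is silenced by DNA methylation or by a non-coding RNA, so that RNA comes mainly from the other copy. Many imprinted genes act on fetal growth: paternally expressed Igf2, Dlk1, Peg3, Mest and Plagl1 tend to favour it, and maternally expressed H19, Igf2r and Grb10 tend to restrain it. Several sit in shared domains, with H19 beside Igf2 and Meg3 beside Dlk1, where each pair is expressed from opposite parental copies. In neural tissue, Grb10 and Ndn are also known from neurons, where Grb10 is expressed from the paternal copy. Counts per gene hold no parental information, so nothing here speaks to which copy was active.

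Total counts ran from 37429290 to 49189360 per library, and levels are counts per 1000000 reads (CPM) after TMM scaling. Markers of the MGE and ventral forebrain were present in every library, with 0 of 12 without a read, and Nkx2-1 averaged 433 ± 98.5 CPM over the 4 controls (SD) and 407 ± 82.8 CPM over the 2 heterozygous libraries (SD). All 12 hypothalamic markers also had reads in every library, summing to 418 to 588 CPM in controls and 472 and 595 CPM in heterozygous libraries 1 and 2. Both heterozygous libraries lay above every control for 6 of these 12, beside 6.17% of all genes, and below for 1, beside 8.14%. For this list edgeR called 0 genes and DESeq2 1 (Sim1, higher, adjusted p = 0.0448), beside 0.455% of all genes. Of the 12 MGE and ventral forebrain markers, both heterozygous libraries lay above every control for 2 (Gsx1 and Dlx1) and below for 0. The median log2 fold change was 0.52 for these markers, with 11 of 12 above 0. It was 0.54 for the hypothalamic markers, with 8 of 12 above 0. Whether the groups differ in regional make-up was not tested. Magoh averaged 81.0 ± 25.01 and 52.8 ± 6.05 CPM, a log2 fold change of -0.62 ± 0.27 (SE) that did not pass the test (edgeR, adjusted p = 0.85). Control 2 had the highest Magoh level, and without it the log2 fold change was -0.37 ± 0.14 (adjusted p = 0.281). Control 2 and heterozygous library 1 stood apart from the other 4: they had 0 reads from 4 Y-linked genes, and in them long transcripts were low relative to short ones. The median deviation of genes of at least 8000 nt of exon minus that of genes under 1000 nt was -0.75 log2 units for control 2, -0.32 for heterozygous library 1, and between 0.13 and 0.38 for the rest.

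None of the imprinted growth genes passed the test between genotypes, and 9 of 10 had a lower fitted level in heterozygous cells. With edgeR 0 of 10 members passed, where 0% of the 16495 tested genes did, limma-voom called 0 of 10 and 0% of genes, and DESeq2 called 0 of 10, where it called 0.455% of genes (0.412% as lower). At an unadjusted p under 0.05 (edgeR, 5.72% of all genes), 2 of 10 were lower (Mest and Plagl1), where 3.98% of all genes were, and 0 of 10 were higher, where 1.75% were. The median log2 fold change of the 10 members was -0.40, beside -0.03 over all tested genes, and 9 of 10 were below 0, beside 53.9% of all genes. For 2 of 10 members (Dlk1 and Mest) both heterozygous libraries lay below every control, where 8.14% of all genes did so, and for 0 of 10 did both lie above, where 6.17% did (14.3% in either direction). Without control 2, that count was 7 of 10 (H19, Igf2r, Dlk1, Peg3, Grb10, Mest and Plagl1), where 19.4% of all genes lay below the 3 other controls. That comparison was chosen after seeing the data. It keeps heterozygous library 1, which like control 2 lacks Y-linked reads and is low in long transcripts. Against control 2, heterozygous library 1 was higher for H19, Igf2r, Peg3, Grb10 and Plagl1, by 0.05 to 0.55 log2 units. A set of bulk libraries cannot tell fewer cells that express a gene from less RNA per cell.

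**Figure D1:**
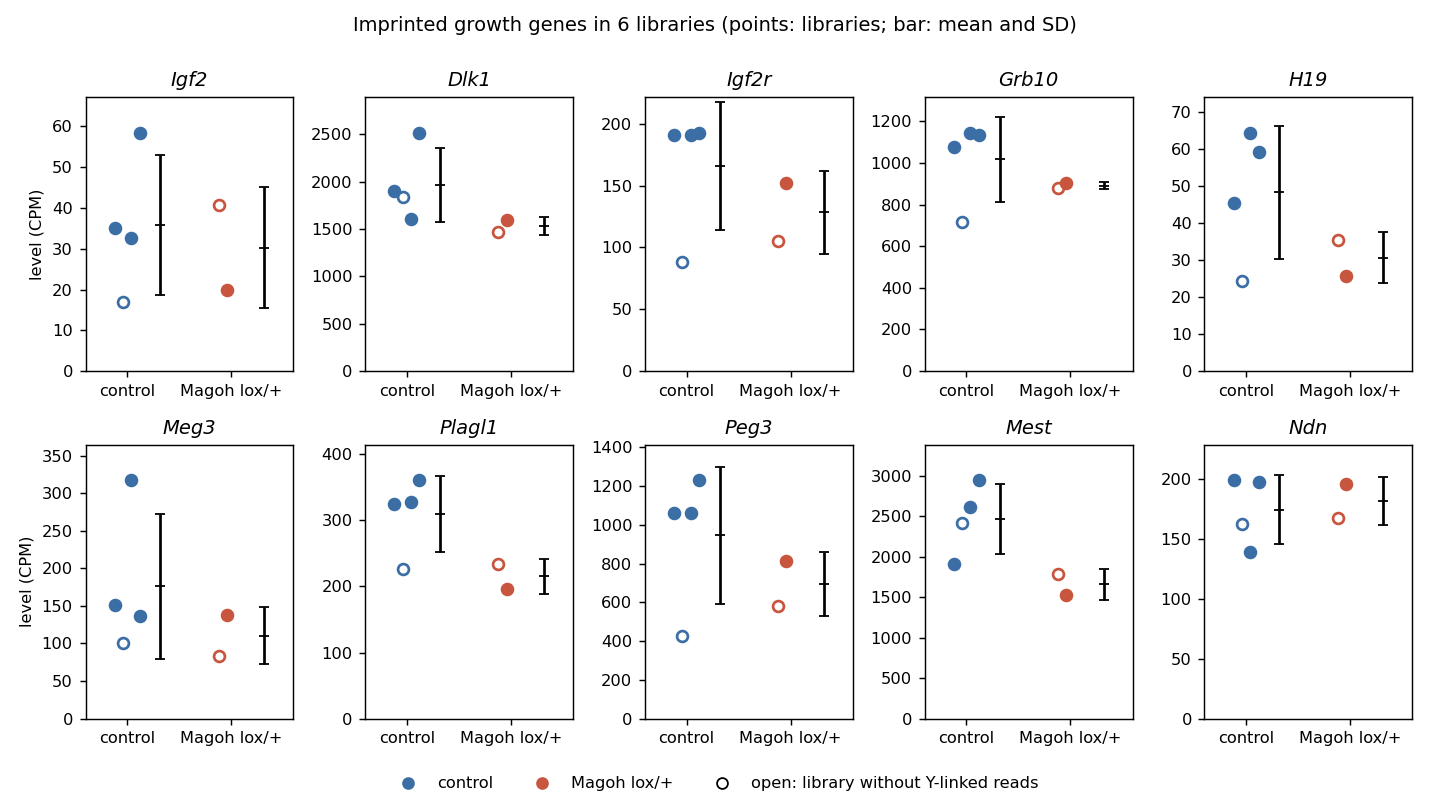
Level of each of the 10 genes in CPM (vertical axis, from 0) in control and Magoh lox/+ libraries, with points for libraries and a bar for mean and SD, and open points for the 2 libraries without Y-linked reads. Mest and Dlk1 are the genes whose heterozygous libraries both lie below every control, and control 2, the open control point, is the lowest control of H19, Igf2, Igf2r, Meg3, Peg3, Grb10 and Plagl1.

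Levels of different genes were compared per kb of merged exon, as the mean over the 4 controls. Mest was the most abundant at 626 ± 110 CPM per kb (SD, n = 4), followed by Dlk1 at 347 ± 68.5 and Grb10 at 112 ± 22.4 CPM per kb. Mest exceeded Dlk1, Dlk1 exceeded Grb10, and Plagl1 exceeded H19, in each case with no overlap between the ranges of the controls. The neighbours in between overlapped: Peg3 (71.02 ± 26.6 CPM per kb) with Grb10 above it and Ndn (47.3 ± 7.87) below it, and Ndn with Plagl1 (39.6 ± 7.43). At the low end, H19 (19.7 ± 7.28 CPM per kb), Igf2r (17.8 ± 5.56), Meg3 (9.74 ± 5.32) and Igf2 (6.25 ± 2.99) each overlapped the next. The place of Igf2 is uncertain, since 62.8% of its exon length is shared with another gene model and read assignment there is unknown. The 10 genes made up 0.601 to 0.883% of scaled reads in controls and 0.538 and 0.557% in the heterozygous libraries, and Mest and Dlk1 gave most of these reads.

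The windows before the start sites of Mest, Plagl1 and Dlk1 are shown because these were the members that lay below all controls, Plagl1 only after each library's trend on length and GC content was removed. They are the 250 bases before a RefSeq start (GRCm38.p6), written 5′ to 3′ on the gene's strand, with CG dinucleotides, the sites of DNA methylation, in capitals.
Mest, start in the second RefSeq window, chr6:30737800-30738049, plus strand: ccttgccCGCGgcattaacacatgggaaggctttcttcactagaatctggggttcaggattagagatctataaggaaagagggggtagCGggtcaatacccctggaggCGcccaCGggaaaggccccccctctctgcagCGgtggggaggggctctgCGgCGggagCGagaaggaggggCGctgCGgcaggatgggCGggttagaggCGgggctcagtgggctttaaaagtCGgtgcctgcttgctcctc
Plagl1, chr10:13090582-13090831, plus strand: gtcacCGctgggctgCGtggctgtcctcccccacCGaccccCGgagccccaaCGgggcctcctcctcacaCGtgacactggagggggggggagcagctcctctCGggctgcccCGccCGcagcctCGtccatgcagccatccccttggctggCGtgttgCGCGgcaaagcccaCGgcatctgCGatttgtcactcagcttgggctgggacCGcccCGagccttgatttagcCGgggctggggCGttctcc
Dlk1, chr12:109452573-109452822, plus strand: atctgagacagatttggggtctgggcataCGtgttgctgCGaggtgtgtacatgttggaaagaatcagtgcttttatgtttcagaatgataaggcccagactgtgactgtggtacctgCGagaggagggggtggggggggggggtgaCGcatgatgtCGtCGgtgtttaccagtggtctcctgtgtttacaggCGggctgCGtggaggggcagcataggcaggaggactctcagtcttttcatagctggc
These windows hold 14 CG dinucleotides for Mest, 19 for Plagl1 and 8 for Dlk1. Windows were found for 9 of the 10 members, and their 16 windows held 0 to 40 CG dinucleotides, with a median of 9. Over 32851 mouse windows the median was 6, with quartiles of 2 and 16, so the members' median lay between these quartiles. Several members have more than one start, and their windows differ, since the 4 windows of Igf2 held 1, 10, 22 and 6.

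Plagl1 encodes a zinc finger protein known to bind GGGGCCCC, which reads the same on both strands. Among the 16 member windows that motif was found in 1, that of Peg3, and in 0.889% of all windows. The window is shown with the motif in capitals.
Peg3, chr7:6730420-6730669, minus strand: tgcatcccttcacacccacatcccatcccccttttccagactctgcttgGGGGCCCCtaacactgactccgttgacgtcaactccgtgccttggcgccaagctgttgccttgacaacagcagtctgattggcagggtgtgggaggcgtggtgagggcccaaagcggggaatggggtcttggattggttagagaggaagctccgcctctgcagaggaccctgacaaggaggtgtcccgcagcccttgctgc
The TATA box letters TATAAA, searched on both strands, were found in 1 of the 16 windows (Meg3) and in 12.4% of all windows. The letters GCCATNTT, bound by Yy1, were found on either strand in 0 of the 16 and in 3.91% of all windows.

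Igf2 (ENSMUSG00000048583; chromosome 7, 142650766 to 142666816, minus strand, GRCm38) encodes insulin-like growth factor 2, a secreted growth factor of the embryo. Igf2 levels were 35.1, 16.8, 32.7 and 58.4 CPM (control libraries 1 to 4), and 40.8 and 19.8 CPM (heterozygous libraries 1 and 2). Both heterozygous libraries lay within the control range, with control 2 lowest and control 4 highest. Its log2 fold change was -0.24 ± 0.47 (SE; edgeR, adjusted p = 0.9995). Its sign depended on single libraries: it was 0.19 ± 0.55 without heterozygous library 2, 0.10 ± 0.42 without control 4, -0.46 ± 0.36 without control 2 and -0.84 ± 0.60 without heterozygous library 1. Without both libraries that lack Y-linked reads it was -1.08 ± 0.36, and within that pair it was 1.28. Of the merged exons of Igf2, 62.8% also lie in Gm49394, a same-strand gene model that is not in the count table, and how reads there were assigned is unknown here.

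Dlk1 (ENSMUSG00000040856; chromosome 12, 109452823 to 109463336, plus strand) encodes a transmembrane protein related to Notch ligands, which is known to hold back differentiation and of which a part is shed. Its coordinates and those below are GRCm38 (GENCODE M21). Dlk1 levels were 1895, 1834, 1606 and 2513 CPM (control libraries 1 to 4), and 1466 and 1595 CPM (heterozygous libraries 1 and 2). Both heterozygous libraries lay below every control, but library 2 and control 3 were close, and they overlapped both with the deposited normalized values and after length and GC trends were removed. The fitted log2 fold change was -0.36 ± 0.21 (SE; edgeR, adjusted p = 0.9195). Heterozygous library 1 differed from control 2 by -0.32, heterozygous library 2 from controls 1, 3 and 4 by -0.30, and without control 4 the fold change was -0.21.

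Igf2r (ENSMUSG00000023830; chromosome 17, 12682406 to 12769664, minus strand) encodes the receptor that takes up IGF2 and sends it to lysosomes. Igf2r levels were 191, 87.9, 191 and 193 CPM (control libraries 1 to 4), and 105 and 152 CPM (heterozygous libraries 1 and 2). Controls 1, 3 and 4 were nearly equal and both heterozygous libraries were below them, while control 2 was below all. The log2 fold change was -0.36 ± 0.34 (SE; edgeR, adjusted p = 0.999) and was 0.25 within the pair without Y-linked reads. It was -0.56 without control 2, -0.66 without heterozygous library 2 and -0.11 without heterozygous library 1. Airn, the antisense RNA that silences the paternal copy of Igf2r in mice, was at most 0.53 CPM in any library.

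Grb10 (ENSMUSG00000020176; chromosome 11, 11930508 to 12038683, minus strand) encodes an adaptor that binds the insulin and IGF1 receptors and damps their signal. Grb10 levels were 1075, 716, 1144 and 1134 CPM (control libraries 1 to 4), and 878 and 904 CPM (heterozygous libraries 1 and 2). The heterozygous libraries were close to each other and lay between control 2 and the 3 other controls. Its log2 fold change was -0.19 ± 0.22 (SE; edgeR, adjusted p = 0.9995). Without control 2 it was -0.31 ± 0.11 (adjusted p = 0.259, within 0.259 to 1.0 over the alternatives), and within the pair without Y-linked reads the sign turned, at 0.29.

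H19 (ENSMUSG00000000031; chromosome 7, 142575529 to 142578143, minus strand) gives a non-coding RNA, the host of miR-675, from the domain it shares with Igf2. H19 levels were 45.4, 24.3, 64.4 and 59.3 CPM (control libraries 1 to 4), and 35.5 and 25.8 CPM (heterozygous libraries 1 and 2). Both heterozygous libraries were below controls 1, 3 and 4, and control 2 was the lowest of all 6. The fitted log2 fold change was -0.66 ± 0.38 (SE; edgeR, adjusted p = 0.908), and it was -0.87 ± 0.21 without control 2 (adjusted p = 0.18, within 0.152 to 1.0 over the alternatives) and -1.12 ± 0.22 without both libraries that lack Y-linked reads. Within the pair without Y-linked reads H19 was higher in heterozygous cells, by 0.55 log2 units. The ratio of H19 to Igf2 reads ran from 1.015 to 1.97 in controls and was 0.871 and 1.31 in heterozygous libraries 1 and 2, so heterozygous library 1 was the only one of the 6 with fewer H19 than Igf2 reads.

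H19 and Igf2 are abundant in embryonic mesenchyme, and mesenchyme markers were present in every library, with 15 of 16 detected and Tcf21 without a read. Their summed level was 198, 164, 199 and 271 CPM (control libraries 1 to 4), and 270 and 103 CPM (heterozygous libraries 1 and 2). Igf2 was highest in control 4 and heterozygous library 1, the libraries with the highest marker sums, and lowest in control 2 and heterozygous library 2, those with the lowest. H19 did not follow that order: it was highest in control 3 (64.4 CPM), and in heterozygous library 1 (35.5 CPM) it was below control 1 (45.4 CPM). Col1a2, a collagen gene, stood at 80.1 CPM in control 4 and 21.3 CPM in heterozygous library 2. Other non-neural markers also differed between libraries: erythroid markers summed to 31.3 to 137 CPM in controls and to 370 and 0.753 CPM in heterozygous libraries 1 and 2, and endothelial markers to 7.71 to 32.7 CPM in controls and 13.3 and 8.12 CPM. Macrophage and microglia markers summed to 94.1 CPM in control 4, the library highest for 6 of the 10 members, to 3.002 to 4.26 CPM in the other controls and to 13.9 and 0.488 CPM in the heterozygous libraries. The part of these cells in the levels of H19 and Igf2 was not tested.

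**Figure D2:**
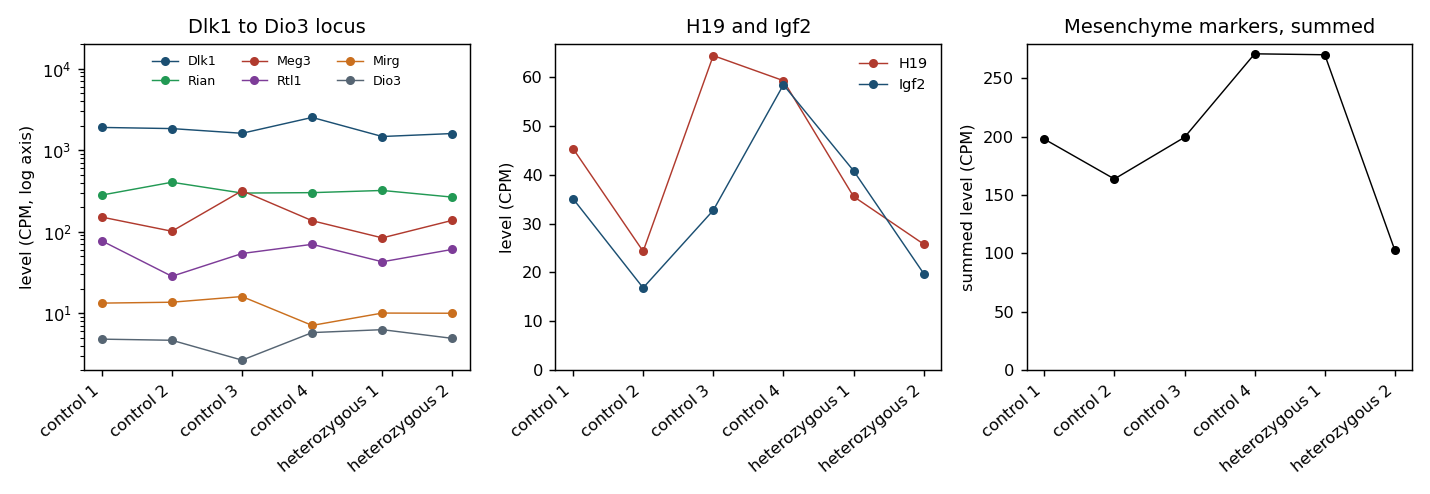
Level in each library (horizontal axis) of genes of the Dlk1 to Dio3 locus (left, CPM on a log axis), of H19 and Igf2 (middle, CPM) and of 16 mesenchyme markers summed (right, CPM), with lines that only join points of a gene. Meg3 and Mirg are highest in control 3 while Rian and Dlk1 are not, and Igf2 and the marker sum are both highest in control 4 and both at their 2 lowest values in control 2 and heterozygous library 2.

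Meg3 (ENSMUSG00000021268; chromosome 12, 109541001 to 109571726, plus strand) gives a long non-coding RNA from the maternal copy of the Dlk1 domain. Meg3 levels were 151, 101.0, 317 and 136 CPM (control libraries 1 to 4), and 83.7 and 137.5 CPM (heterozygous libraries 1 and 2). Control 3 was at least 2 times every other library, and without it the log2 fold change was -0.22 ± 0.28 in place of -0.67 ± 0.46 (SE; edgeR, adjusted p = 0.9996 and 0.948). It was -0.34 without heterozygous library 1, -1.08 without heterozygous library 2, -0.85 without control 2 and -0.27 within the pair without Y-linked reads. Rian and Mirg are maternally expressed non-coding RNAs downstream of Meg3. Rian stood at 297 CPM in control 3 against 281 to 403 CPM in the other controls, while Mirg was highest in control 3, at 16.0 CPM against 7.07 to 13.6 CPM. The ratio of Meg3 to Rian reads was 1.07 in control 3 and 0.251 to 0.537 in the 5 other libraries. The ratio of Meg3 to Mirg did not set control 3 apart, at 19.9 in control 3, 19.2 in control 4 and 7.43 to 13.8 in the rest. Between genotypes Rian (log2 fold change -0.13 ± 0.20), Mirg (-0.32 ± 0.32), paternally expressed Rtl1 (-0.15 ± 0.38) and Dio3 (0.32 ± 0.34) all overlapped, and none passed the test.

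Plagl1 (ENSMUSG00000019817; chromosome 10, 13060504 to 13131694, plus strand) encodes the zinc finger factor named above, which is known to regulate other imprinted genes, and it arrests the cell cycle when overexpressed. Plagl1 levels were 324.5, 226, 328 and 361 CPM (control libraries 1 to 4), and 234 and 197 CPM (heterozygous libraries 1 and 2). The heterozygous libraries were below controls 1, 3 and 4, with control 2 between them. The log2 fold change was -0.53 ± 0.22 (SE; edgeR, adjusted p = 0.85) and stayed below 0 in 17 of 17 alternatives with a test, from -0.77 to -0.41. The difference was not seen within the pair without Y-linked reads (0.05 log2 units), and it was -0.78 among the other 4. With length and GC trends removed, both heterozygous libraries lay below all controls, as for 9.09% of all genes, and the log2 fold change was -0.45 ± 0.17 (adjusted p = 0.606). Phactr2, a neighbour of Plagl1, was lower with a larger fold change, with 48.4 ± 15.8 CPM over the 4 controls (SD) and 22.3 ± 1.82 CPM over the 2 heterozygous libraries (SD; edgeR, adjusted p = 0.793).

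Peg3 (ENSMUSG00000002265; chromosome 7, 6703892 to 6730431, minus strand) encodes a large zinc finger protein linked to growth and maternal behaviour. Peg3 levels were 1064, 427, 1063 and 1230 CPM (control libraries 1 to 4), and 580 and 814 CPM (heterozygous libraries 1 and 2). The lowest control was again control 2, and both heterozygous libraries were below the 3 others. Its log2 fold change was -0.44 ± 0.40 (SE; edgeR, adjusted p = 0.995). It was -0.67 without control 2, -0.71 without heterozygous library 2, -0.21 without heterozygous library 1 and -0.29 without control 4. It was 0.44 within the pair without Y-linked reads and -0.09 ± 0.20 with presence of Y-linked reads as a covariate. Its neighbours Usp29 (11.6 ± 4.75 CPM in controls, 14.6 ± 4.47 in heterozygous cells) and Zim1 (9.94 ± 3.67 and 7.75 ± 0.924) overlapped between genotypes.

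Mest (ENSMUSG00000051855; chromosome 6, 30723547 to 30748465, plus strand) encodes a protein of the alpha/beta hydrolase family that is abundant in embryonic mesoderm and neural tissue. It had the smallest p of the 10. Mest levels were 1907, 2413, 2609 and 2944 CPM (control libraries 1 to 4), and 1793 and 1526 CPM (heterozygous libraries 1 and 2). Both heterozygous libraries lay below every control, library 1 and control 1 by a small margin. The fitted log2 fold change was -0.57 ± 0.22 (SE; edgeR, adjusted p = 0.85), and DESeq2 gave an adjusted p of 0.4595. An exact permutation test over the 6 libraries gave p = 0.0667 (two-sided), the smallest that 4 against 2 samples allow. Heterozygous library 1 differed from control 2 by -0.43 log2 units, and heterozygous library 2 from controls 1, 3 and 4 by -0.68. Length and GC trends made little difference to it (-0.56 ± 0.18, adjusted p = 0.559), and over 17 alternatives it ran from -0.69 to -0.32.

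Copg2, a coat protein gene on the opposite strand whose exons overlap 23.1% of the merged exons of Mest, averaged 101.3 ± 4.53 CPM over the 4 controls (SD) and 103 ± 2.101 CPM over the 2 heterozygous libraries (SD). How reads from the overlap were assigned is unknown here, so some may be missing from the level of Mest. The level of Copg2 was a small part of that of Mest in every library, which does not bear on such missing reads.

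Ndn (ENSMUSG00000033585; chromosome 7, 62346569 to 62350262, plus strand) encodes necdin, a growth suppressor of postmitotic neurons. Ndn levels were 199, 163, 139 and 198 CPM (control libraries 1 to 4), and 168 and 196 CPM (heterozygous libraries 1 and 2). Both heterozygous libraries lay within the control range. The log2 fold change was 0.06 ± 0.20 (SE; edgeR, adjusted p = 0.9995), and it ran from -0.06 to 0.18 over the alternatives. Of its neighbours, Magel2 averaged 97.9 ± 36.4 CPM over the 4 controls (SD), with 53.9 and 149 CPM for heterozygous libraries 1 and 2. Snrpn, a splicing protein gene of the same domain, was higher in both heterozygous libraries (116 and 125 CPM) than in every control (74.96 to 100.8 CPM), with a log2 fold change of 0.45 ± 0.17 (edgeR, adjusted p = 0.85). Pan-neuronal markers, among which Ndn is not counted, summed to 2287 to 3436 CPM in controls and 3829 and 4663 CPM in heterozygous cells, and neural progenitor markers to 3765 to 6614 and to 3835 and 4567 CPM. The progenitor sums of both heterozygous libraries thus lay within the control range, while their neuronal sums lay above it. The part of neurons and progenitors in the members' levels was not tested.

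**Figure D3:**
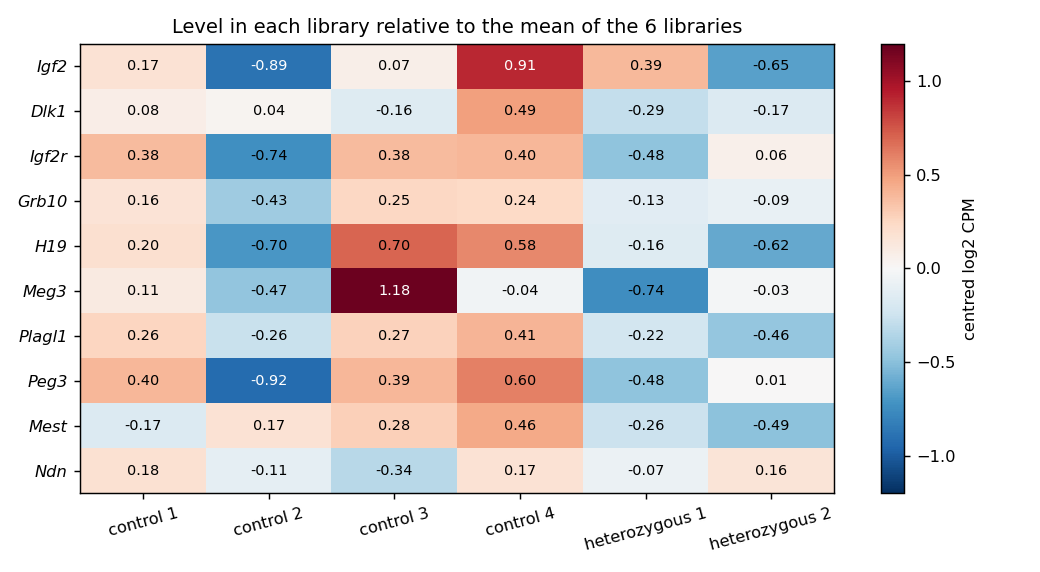
Level of each gene (rows) in each library (columns) as log2 CPM minus the mean over the 6 libraries, in log2 units, with red above and blue below the mean. Control 4 is above the mean for 9 of 10 genes and heterozygous library 1 below it for 9 of 10, while control 2 is lowest for 5 genes.

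The members did not share a single pattern over libraries. Control 4 was the highest library for 6 of the 10 genes and control 3 for 3, and neither heterozygous library was the highest for any of them. Igf2r and Peg3 were the most alike pair, with a root mean square difference of 0.12 log2 units between their centred levels over the 6 libraries, followed by Grb10 and Plagl1 at 0.19. The members with long merged exons (Meg3 18089 nt, Peg3 13324 nt, Igf2r 9308 nt and Grb10 9089 nt) were low in control 2 and heterozygous library 1, the libraries in which long transcripts as a whole were low. Of the shorter members, H19 (2460 nt) and Igf2 (5723 nt) also had their lowest levels of all 6 libraries in control 2. H19 still did with length and GC trends removed (4.50 log2 CPM). Igf2 did not, at 4.37 log2 CPM in control 2 and 4.20 in heterozygous library 2. With length and GC trends removed, Peg3 still had its lowest level in control 2 (9.18 log2 CPM, against 9.79 to 10.15 in the other controls), while Meg3 in control 2 (7.33) lay above controls 1 and 4 (6.89 and 6.93). Variation among the controls was widest for Igf2, Meg3, Peg3 and H19, with an SD of 0.74, 0.70, 0.70 and 0.63 log2 units, larger than for 82.9, 81.5, 81.4 and 78.4% of tested genes. It was narrowest for Ndn at 0.25, larger than for 33.1%.

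Genes most like each member were taken as those with the smallest root mean square difference in centred log2 level, among 11920 non-members that averaged 1 CPM or more and have no clone name. They share libraries and depth with the members, so likeness is a description. Mest was most like Naaa, Nlrx1 and Gsta4 (differences of 0.08, 0.09 and 0.10 log2 units). H19 was most like Fam83g, Nedd9 and Fbln2 (0.10, 0.10 and 0.11), and Igf2 like Hmha1, Loxl1 and Lef1 (0.19 to 0.20), the poorest matches of any member. Meg3 was most like Nfat5, Pcsk5 and Zbed6 (0.13 to 0.18). Peg3 was most like Lrp4, Mybbp1a and Tjp1 (0.06 to 0.07), and Igf2r like Cabin1, Disp1 and Plekhh1 (0.04 to 0.05). Dlk1 was most like Foxb2, Scd1 and Slitrk1 (0.06 to 0.08), Plagl1 like Ildr2, Espl1 and Hhipl1 (0.06 to 0.07), Grb10 like Hnrnpa3, Parp2 and Rdx (0.03 to 0.04), and Ndn like Olig1, Mb21d2 and Scd2 (0.07 to 0.08).

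**Figure D4:**
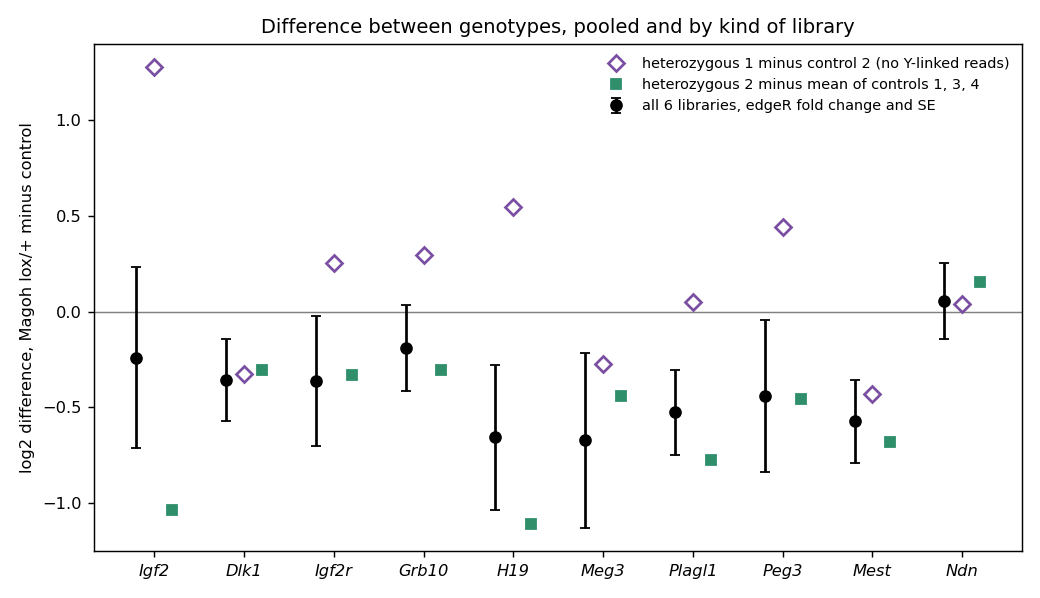
Difference between genotypes in log2 units (vertical axis) for each gene: edgeR fold change with SE over all 6 libraries (black), heterozygous library 1 minus control 2 (open diamonds) and heterozygous library 2 minus the mean of controls 1, 3 and 4 (squares). Dlk1, Meg3 and Mest are below 0 in all 3, whereas for H19, Igf2, Igf2r, Peg3, Grb10 and Plagl1 the diamond is above 0.

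Within the pair without Y-linked reads, which has no replicates, 3 members were lower in heterozygous cells (Dlk1, Meg3 and Mest) and the median difference of the 10 was 0.15. The largest was Igf2, at 1.28 log2 units higher. Leaving both of these libraries out gave a median of -0.49, with 0 members past the test (edgeR, smallest adjusted p = 0.131, for Plagl1). That fit has a single heterozygous library, which is assumed to vary like the controls. The labels give no sex, and the absence of Y-linked reads and the length difference cannot be told apart in these libraries.

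Other imprinted genes, from a list of 72 of which 57 were tested, were near the background: 30 of 57 were below 0, with a median log2 fold change of -0.01, and 0 passed edgeR or DESeq2. At an unadjusted p under 0.05, 1 of 57 was higher (Snrpn), beside 1.75% of all genes, and 2 were lower (Phactr2 and Cobl), beside 3.98%. Both heterozygous libraries lay below all controls for 5 of 57, beside 8.14% of all genes, and above for 2, beside 6.17%. The most abundant of the list by CPM was Nnat, a small membrane protein gene of neurons, with 3564 ± 811 CPM over the 4 controls (SD) and 3996 ± 20.9 CPM over the 2 heterozygous libraries (SD). Peg10, a gag-derived gene, stood at 1243 ± 263 and 1250 ± 307 CPM, and Gnas, the stimulatory G protein alpha subunit, at 1005 ± 158 and 1034 ± 186 CPM. Cobl, an actin nucleator and neighbour of Grb10, stood at 12.1 ± 5.32 and 3.23 ± 2.30 CPM (edgeR, adjusted p = 0.793).

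Of the IGF and insulin axis, through which Igf2, Igf2r and Grb10 act, 31 of 34 listed genes were tested and 0 passed edgeR. At an unadjusted p under 0.05 (edgeR), 2 of 31 were lower and 1 was higher, beside 3.98% and 1.75% of all genes. DESeq2 called 1 of 31, Igfbp3, lower (adjusted p = 0.0114), where it called 0.455% of all genes. Igfbp3 encodes a secreted binding protein that holds IGFs outside cells, and its levels were 9.60, 6.71, 12.6 and 29.4 CPM (control libraries 1 to 4), and 3.02 and 2.58 CPM (heterozygous libraries 1 and 2; edgeR log2 fold change -2.38 ± 0.61, adjusted p = 0.793). Both heterozygous libraries were below every control. Relatives of it differed in sign: Igfbp2 averaged 368 ± 102 CPM over the 4 controls (SD) and 241 ± 18.6 CPM over the 2 heterozygous libraries (SD), below every control, and Igfbpl1 averaged 144 ± 28.2 and 227 ± 8.80 CPM, above every control, each without passing edgeR (adjusted p = 0.85 and 0.793).

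Igf1r and Insr overlapped between genotypes. Igf1r, the receptor through which IGF2 signals, averaged 138 ± 43.7 CPM over the 4 controls (SD) and 106 ± 32.8 CPM over the 2 heterozygous libraries (SD), and Insr, the insulin receptor, averaged 94.1 ± 14.5 and 96.5 ± 11.4 CPM. Over the list, 17 of 31 genes were below 0, with a median log2 fold change of -0.13, 5 lay below all controls in both heterozygous libraries, beside 8.14% of all genes, and 3 above, beside 6.17%. Of these 8, Stc2, an inhibitor of the protease that frees IGFs, stood at 4.16 ± 0.305 and 2.75 ± 0.0392 CPM, without passing (edgeR, adjusted p = 0.85).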

How the data were processed

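Total RNA of tdTomato-sorted cells was sequenced in 6 libraries, 4 control and 2 Magoh lox/+. The authors deposited raw read counts per gene and a table of normalized values, a signal equal to the counts divided by 1 factor per library. The mouse build mm10 and the tools HTSeq, STAR and Trim Galore are named, per the submitters' processing notes. The sources used here give no annotation, strand setting or version. Columns were matched to samples through the codes in their titles, and 0 columns were left over. No row lacked a gene (0 rows).

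Genes were kept by filterByExpr and tested with edgeR 4.0.16 (glmQLFit, robust, TMM; R 4.3.3), two-sided, with Benjamini-Hochberg adjustment over 16495 genes and a threshold of 0.05. DESeq2 1.42.0 and limma 3.58.1 were alternatives, with a pseudocount of 1 on the deposited normalized values. SE is the fold change divided by the root of F. Log2 CPM used a prior count of 2. A count of 0 allows up to 3 counts, 0.061 to 0.0802 CPM, for counting error only. GENCODE M21 (GRCm38) gave coordinates, exon lengths and GC, and trends were loess fits (span 0.5) on the 98.6% of tested genes with both. Promoters came from RefSeq (GRCm38.p6).

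All members, their tested locus neighbours, and up to 4 genes per list by p and 3 by level could be named. Genes named beyond that rule were chosen after their values were seen. The members and lists were chosen with earlier results of these data known. On simulated counts of 15887 genes, 4 against 2 libraries, edgeR recovered 15% of genes changed 2-fold and 82% of those changed 4-fold, with 5 false calls. On the same counts, with 100 genes changed 2-fold and 100 changed 4-fold, DESeq2 recovered 38% and 98%, with 37 false calls. For limma-voom these values were 15% and 77%, with 10 false calls. In these simulated counts a call by DESeq2 alone was therefore weaker than its adjusted p implies. The counts come from a single draw and lack the length difference between the real libraries. How far this holds for the real calls by DESeq2 was not tested.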

Additional observations from a re-analysis of the deposited data

Results flagged for a closer look

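For 2 genes, Igf2r and Grb10, a single control lay far from the other 3. Igf2r in control 2 stood at 87.9 CPM, and its gap to the next control was 0.98 of the range of the 4 controls. Grb10 in control 2 stood at 716 CPM, with a gap of 0.838 of the range. Both gaps exceed the 95% critical value of Dixon's test for 4 samples, which chance passes in about 1 in 20 groups, and 10 genes were examined. Control 2 is the library with the largest length difference (-0.75 log2 units), and the merged exons of these genes are long (9308 nt for Igf2r and 9089 nt for Grb10). With length and GC trends removed, a comparison added after seeing the data, control 2 was still the lowest control for both, but on the log2 scale the gap was 0.791 of the range for Igf2r, in place of 0.986, and 0.403 for Grb10, in place of 0.867, both below the critical value.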

How the results depend on the processing

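The count of members past the test was 0 in all 17 alternatives with a test. Over all genes edgeR called 0, DESeq2 75 and edgeR with the sample code number as a replicate block 11. No call among the members changed under that replicate block, which rests on control 1 and heterozygous library 2, the only libraries of both groups that share a number, and whose meaning the labels do not give. For the IGF and insulin axis DESeq2 called 1 gene. The members' median stayed between -0.57 and -0.21 under the alternatives with a test and was 0.15 in the pair of libraries without Y-linked reads. In that pair the sign turned for H19 (0.55), Igf2 (1.28), Igf2r (0.25), Peg3 (0.44), Grb10 (0.29) and Plagl1 (0.0475). The sign of Igf2 also turned without control 4 (0.10) and without heterozygous library 2 (0.19), and that of Ndn with the replicate block (-0.0245), without control 3 (-0.0373) and without heterozygous library 2 (-0.0644). With a library left out, the log2 fold change of Igf2 ran from -0.8443 to 0.1855 and that of Ndn from -0.0644 to 0.1761, and the members' median from -0.57 to -0.28. The count of members outside the control range, with alternatives chosen after seeing the data, was 1 with the deposited normalized values and 2 to 7 with a library left out, 7 without control 2. The 2 heterozygous libraries limit every comparison.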
